A study of Mus musculus with 9 samples.

Results

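Neutrophils release myeloperoxidase, and the oxidant this enzyme forms is hypochlorous acid (HOCl), the acid of household bleach. It reacts readily with the sulfur and amine groups of proteins. The comparison described here asks how the transcripts of melanoma cells differ after such an exposure, gene by gene and class by class, beyond the NRF2, ATF4 and interferon genes for which oxidant responses are best known. It rests on 6 of the 9 libraries of the series, those titled as B16F10 cells: 3 untreated and 3 with HOCl. B16F10 is an established, pigmented melanoma line from a C57BL/6 mouse, and both groups are the same line. Per the labels, cells grew on 100 mm plates for 4 days and then stood for 5 h in culture medium that held either no HOCl or 600 µM of it. The 3 T cell libraries of the series were not used.

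The libraries held between 45895352 and 61347337 gene counts, and values are given as counts scaled to a common total, the usual CPM. The 10 melanocyte markers summed to between 24737 and 25802 CPM in all 6 libraries, with none at 0. Single markers moved within that sum. Sox10 went from 525, 571 and 566 CPM to 697, 686 and 672 CPM after HOCl. Mc1r went from 187, 166 and 175 CPM to 110, 112 and 114 CPM. Tyr, Mlana and Slc45a2 also lay lower in every HOCl library than in any untreated one. HOCl library 3 stood apart in its T and B cell markers. Its 15 T cell markers summed to 79.5 CPM against 14.7 to 18.4 CPM in the other 5. Its 8 B cell markers summed to 19.5 CPM against 3.24 to 3.77 CPM (15.5 CPM of it Ighm). Their part in the results was not tested, and counts without that library stand beside the results it moves. The 5 endothelial markers summed to 3.19 to 3.79 CPM in the untreated and 4.29 to 6.52 CPM in the HOCl libraries, with Cdh5 at 0 in 4 of the 6. The summed CPM of the 8 myeloid, 8 fibroblast and 7 erythroid markers overlapped between the 2 groups, with Itgam at 0 in all 6 libraries. Single markers did not always overlap. Col1a1 was lower after HOCl (7.84, 7.12 and 8.26 against 4.63, 5.04 and 5.51 CPM). Pdgfrb was higher (26.6, 26.9 and 28.0 against 31.5, 29.1 and 32.0 CPM). Nothing in the labels says that replicates came from separate cultures. The p-values therefore rest on how far libraries of a group differ, a spread that may be technical only. Counts from 1 to 10 were even in 69.4 to 73.8% of cases and counts over 100 in 49.6 to 50.8%, so a small count in these files is not always 1 molecule and limits taken from 3 counts (0.0489 to 0.0654 CPM) cover counting error only.

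After HOCl, rises and falls were about equal in number and mostly small. Of 9528 well expressed genes (a mean of 10 CPM or more in either group), 2007 rose and 1856 fell, which is 21.1% and 19.5% of them, or 40.5% together (edgeR's quasi-likelihood F test on counts, Benjamini-Hochberg adjustment over all 16082 genes tested, threshold 0.05). Those 2 percentages are the background for every group of genes below. The median size of the called log2 fold changes was 0.29, and at least 1.5-fold changes numbered 136 up and 142 down. At least 2-fold changes numbered 13 up and 25 down. In 3795 of the 3863 called genes (98.2%) the CPM ranges of the 2 groups did not overlap, which with 3 libraries a group follows largely from the call. The share over all well expressed genes was not counted. Genes that reached 10 CPM in only 1 group passed the filter through that group alone, which favours a difference. Examples below are Cachd1, Ddit4l, Btg2, Zfp93, Zfp189, Zfp51, Etv5, Smad6, Fabp7, Map2k6 and Pms2. Not all such genes were called, for instance Taf1a (9.62 and 10.4 CPM). Among the 9194 genes that reached 10 CPM in both groups, 1883 rose and 1748 fell. Over all well expressed genes, the falls were 1261, 1223 and 1188 without HOCl library 1, 2 or 3. The rises were then 1450, 1415 and 1374.

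**Figure D1:**
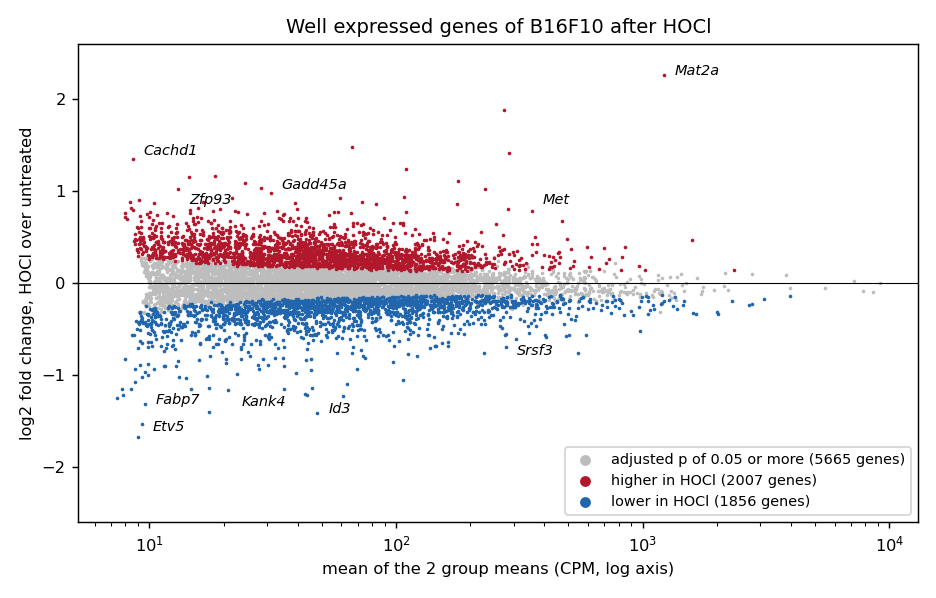
Each point is 1 well expressed gene, with the mean of the 2 group means in CPM (log axis) across and the log2 fold change of HOCl over untreated upward. Red points (2007) were higher and blue points (1856) lower at an adjusted p under 0.05. Mat2a stands alone at 2.26, and most coloured points lie within 1 log2 unit of 0.

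The largest rise was that of Mat2a, the enzyme that makes S-adenosylmethionine, the cell's main methyl donor, from methionine. It measured 387, 440 and 412 CPM in the untreated libraries and 2004, 2000 and 2059 CPM after HOCl, and no other well expressed gene gained as many CPM. Outside the 3 well-known programmes, Cachd1 followed (ENSMUSG00000028532, chromosome 4, 100776675 to 101029220, plus strand, GRCm38), which encodes a cache-domain relative of the calcium channel accessory subunits. It stood at 4.74, 4.89 and 4.66 CPM in untreated cells and at 12.3, 12.5 and 12.3 CPM after HOCl, a log2 fold change of 1.35 ± 0.09 (SE; adjusted p = 2.65e-06, edgeR). Both groups of Cachd1 values are tight and far from each other, and lack of overlap was a condition for naming it. Ddit4l, a relative of the mTOR inhibitor gene Ddit4, went from 9.05, 8.80 and 8.69 CPM to 19.9, 19.8 and 20.2 CPM. Tcp11l2 rose 2.23-fold (11.3 ± 0.940 to 25.7 ± 0.170 CPM, mean ± SD, n = 3 per group) and Plcxd2, a phospholipase C-like gene, 2.04-fold (18.5 ± 1.16 to 38.4 ± 3.69 CPM). None of these 4 lost its call when any 1 library was left out.

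Gadd45a, a growth arrest gene, rose 1.98-fold, from 23, 19.7 and 19.0 CPM to 41.3, 39.2 and 44.0 CPM. Hist1h1c, the linker histone H1.2, went from 29.7, 25.1 and 27.2 CPM to 53.8, 51.6 and 47.3 CPM. It was 1 of 2 well expressed genes of the histone clusters, and the other, Hist1h2bc, rose too (29.0 ± 2.12 to 41.5 ± 3.33 CPM). Histone genes are close copies of each other, and how reads that map to several places were counted is not given in the sources used here.

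The deepest falls outside the interferon programme included targets of growth factor and BMP signals. Etv5, an ETS factor that ERK signalling switches on (ENSMUSG00000013089, chromosome 16, 22381309 to 22439719, minus strand, GRCm38), stood at 12.9, 15 and 13.3 CPM in untreated cells and at 4.53, 4.45 and 5.53 CPM after HOCl. Id3, a dominant negative helix-loop-helix factor induced by BMP signals (ENSMUSG00000007872, chromosome 4, 136143497 to 136145755, plus strand), went from 72.9, 65.3 and 69.7 CPM to 33.7, 26.3 and 20 CPM. Its 3 HOCl values spread more than its untreated ones, and the lowest is in library 3. Its relative Id2 went from 143 ± 2.47 to 70.5 ± 7.43 CPM, and Smad6, the feedback inhibitor of BMP receptors, from 12.6, 11.7 and 11.2 CPM to 6.84, 6.05 and 4.28 CPM. Fabp7, a fatty acid binding protein of neural crest derivatives, fell from 14.9, 13.9 and 11.9 CPM to 6.02, 5.42 and 5.22 CPM. Map2k6, a kinase that activates p38, fell from 10.3 ± 0.953 to 4.42 ± 0.223 CPM. Kank4, an adaptor of cell adhesion sites, stood at 57.2, 60.8 and 63.3 CPM and then at 26.3, 26.5 and 26.3 CPM, a log2 fold change of -1.22 ± 0.06 (adjusted p = 2.01e-07, edgeR).

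**Figure D2:**
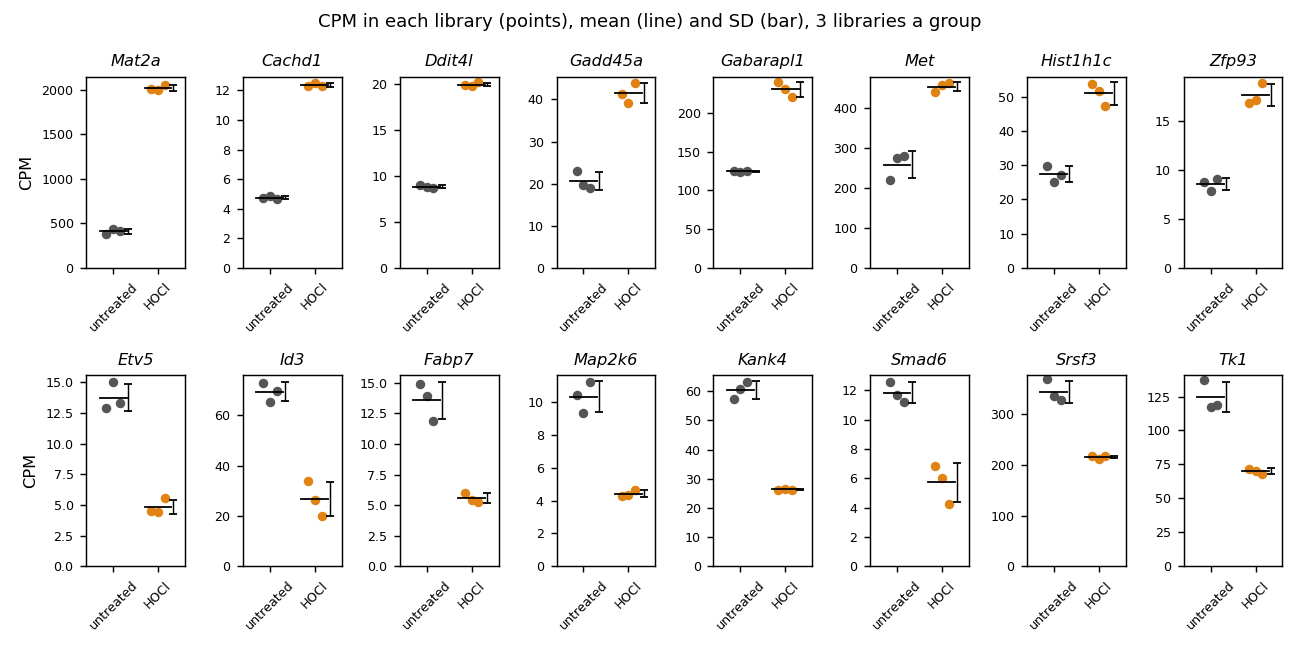
Points are the CPM of 1 gene in each of the 6 libraries (3 untreated in grey, 3 with HOCl in orange), lines the group means and bars the SD, on axes that start at 0. The upper row shows genes that rose, from Mat2a to Zfp93, and the lower row genes that fell, from Etv5 to Tk1. All are called genes, many picked for groups that do not overlap, so the separation seen here follows largely from the choice.

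A large class that rose in most of its members was that of zinc finger proteins. C2H2 zinc finger proteins are the largest family of DNA-binding proteins in mammals. Each finger is a short fold held by a zinc ion through a pair of cysteines and a pair of histidines, fingers stand in tandem rows, and a short conserved linker joins each finger to the next. Many carry a KRAB domain, through which they recruit TRIM28 and silence chromatin, above all at transposable elements. The repeat is visible in the coding sequence. The 3 stretches below show it in the genes with the largest rises among those with 3 or more linkers, 2 of them 84 bases apart within 1 coding exon (reference transcripts of GENCODE M21, sense strand, GRCm38). Capitals mark the linker motif ACNGGNGANAANCC at both ends, with the finger between them in lower case.
Zfp93 (chr7:24275513-24275610, plus strand): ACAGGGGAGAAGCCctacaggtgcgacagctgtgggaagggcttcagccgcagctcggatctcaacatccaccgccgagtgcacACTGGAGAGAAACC
Zfp189 (chr4:49529607-49529704, plus strand): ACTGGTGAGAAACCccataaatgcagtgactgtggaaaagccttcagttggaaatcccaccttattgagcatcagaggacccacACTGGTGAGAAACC
Zfp51 (chr17:21463917-21464014, plus strand): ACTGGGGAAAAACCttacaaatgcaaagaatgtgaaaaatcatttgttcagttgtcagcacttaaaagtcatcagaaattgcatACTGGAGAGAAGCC

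Zfp93 stood at 8.74, 7.83 and 9.06 CPM in untreated cells and at 16.8, 17.1 and 18.9 CPM after HOCl. Zfp189 went from 5.61, 7.12 and 6.19 CPM to 12.8, 11.3 and 11.7 CPM, and Zfp51 from 6.39, 8.61 and 7.02 CPM to 12.8, 12.8 and 15.2 CPM. The groups did not overlap in any of the 3, but all 3 lie under 10 CPM in untreated cells and count as well expressed only through their HOCl values, so this separation is partly set by the filter. Lack of overlap was also a condition for showing them. Of 208 well expressed genes with a Zfp symbol, 137 rose and 6 fell, with a median log2 fold change of 0.31 against 0 for all well expressed genes. Among the 173 that reached 10 CPM in both groups, 106 rose and 6 fell. The 6 that fell included Zfp207, a spindle protein (186 ± 8.61 to 152 ± 1.96 CPM), and without HOCl library 1 only 3 fell.

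The same held for zinc finger genes under other names. Of 13 well expressed Zscan and Zkscan genes, whose products carry a SCAN domain, 12 rose and none fell. Zkscan5 went from 10.8, 12.3 and 10.8 CPM to 20.9, 19.9 and 20.2 CPM, and Zscan25 from 13.9 ± 0.961 to 22.8 ± 0.356 CPM. Of 33 Zbtb genes, whose products pair zinc fingers with a BTB domain, 19 rose and none fell, led by Zbtb10 (13.8 ± 0.807 to 21.9 ± 1.05 CPM). These 2 families were looked at after the Zfp values had been seen. Leaving out any 1 library left 11 or 12 of the Zscan and Zkscan genes and 15 to 19 of the Zbtb genes called higher.

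Counting linkers in place of symbols gave the same picture, but largely over the same genes. Of the 122 genes with 3 or more copies, 97 carry a Zfp symbol. The linker count was not among the classes first planned. Of all well expressed coding genes with a known transcript, 40.8% were called, 21.3% higher and 19.5% lower. Among the 9129 with no copy of the motif in their transcript, 20.2% rose and 19.9% fell. With 1 or 2 copies (107 genes) 47.7% rose and 6.54% fell, and with 3 or more (122 genes) 94 genes or 77.0% rose and 1 fell. Some of the 122 reached 10 CPM only after HOCl, and of the 90 that reached it in both groups 68 (75.6%) rose and 0 fell. The share did not climb further with more fingers: it was 80.4% for 3 to 5 copies, 78.0% for 6 to 9 and 68.0% for 10 or more. Of the 25 genes with 3 or more copies and another kind of symbol, 20 rose and 1 fell. The motif was searched on the sense strand of each gene's protein-coding transcripts, the one with the most copies was used, and a match shows the letters only, not a working finger.

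The shift was present in each HOCl library, at each level below 100 CPM and on most chromosomes. The median of the 122 genes stood at -0.08, 0.06 and 0.03 in the untreated libraries and at 0.34, 0.36 and 0.39 in the HOCl libraries, on a log2 scale against the untreated mean. Leaving out 1 library gave 77 to 92 genes called higher. The share called higher was 73.2% at 10 to 20 CPM, 85.0% at 20 to 50 CPM and 77.8% at 50 to 100 CPM, against 19.3%, 21.6% and 23.2% for other coding genes of these levels. Chromosome 7, which holds the most of them, had 22 of 29 higher, chromosome 5 had 15 of 15 and chromosome 17 had 12 of 18. Only 1 of the 122 exceeded 1.5-fold by a test against that size (glmTreat), so the shift is broad and shallow. Zinc finger genes lie in clusters of similar copies, so single members remain uncertain as to which copy was counted. Trim28, picked out here after its values were seen, was lower after HOCl (log2 fold change -0.26, adjusted p = 0.00216, edgeR).

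**Figure D3:**
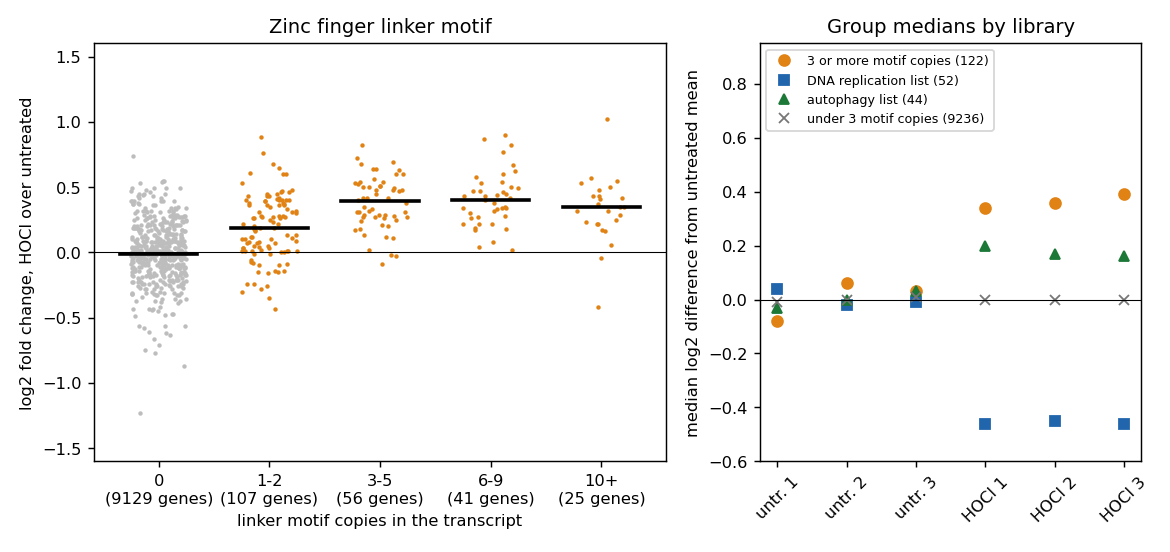
Left: log2 fold change of HOCl over untreated for well expressed coding genes by copies of the linker motif in the transcript, with the class median as a line (a random subset of points is drawn for the 9129 genes with no copy). Right: the median log2 difference from the untreated mean in each library for 4 groups of genes, where the zinc finger group lies at 0.34 to 0.39 and the DNA replication list at -0.45 to -0.46 in the HOCl libraries.

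Histone demethylases and genes of the mRNA mark N6-methyladenosine also leaned upward, while polycomb and SWI/SNF subunits stayed nearer the background. Of 15 well expressed Kdm genes, which remove methyl groups from histone lysines, 9 rose and none fell (median 0.29). Kdm5b, an eraser of histone H3 lysine 4 methylation, went from 36.3, 38.9 and 43.9 CPM to 67.5, 65.8 and 69.3 CPM, and Kdm7a from 38.0, 47.6 and 44.6 CPM to 67.7, 66.0 and 73.1 CPM. Histone methyltransferases rose in 7 of 31 cases and fell in 1 (2 to 12 and 0 to 3 with 1 library left out). Polycomb subunits rose in 6 of 34 and fell in 5 (4 to 10 and 2 to 6), and SWI/SNF subunits rose in 5 of 23 and fell in 3 (1 to 6 and 1 to 4). These shares of rises, 22.6%, 17.6% and 21.7%, are near the background of 21.1%. Of 19 writers, readers and erasers of N6-methyladenosine, the commonest internal mark of mRNA, 10 rose and none fell (median 0.20). The writer-complex genes Cbll1 (21.7 ± 1.34 to 33.8 ± 1.93 CPM) and Rbm15 (43.6 ± 2.99 to 67.6 ± 2.12 CPM) led them. With each library's length trend taken out, as described below, 10 N6-methyladenosine genes rose and 2 fell, and 9 methyltransferases rose and 4 fell.

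Autophagy genes rose without exception among those called. Autophagy encloses cell components in a membrane and delivers them to lysosomes. Of 44 well expressed members, 22 rose, none fell and 22 did not pass (median 0.19). Gabarapl1, a lipid-bound adaptor on the growing membrane, went from 125, 124 and 125 CPM to 240, 231 and 220 CPM. Atg14, which directs the lipid kinase that starts the process, went from 11.4, 10.5 and 11.8 CPM to 19.3, 15.6 and 17.8 CPM. Lysosomal hydrolases did not share this: of 44, 5 rose and 3 fell, both below the background, with a median of -0.01. Their counts were 9 up and 6 down without untreated library 1, and 2 or 3 up without untreated library 2 or 3 or HOCl library 1 or 2.

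FOXO factors are active when PI3K-AKT signalling is low. In a list of these factors and genes they are known to raise, 14 of 20 rose and 1 fell (median 0.29). The rises include the factors Foxo3 and Foxo1 (log2 fold changes of 0.31 and 0.30), and the fall is that of the factor Foxo4 (-0.21, not called without HOCl library 3). Ccng2, an atypical cyclin of resting cells, went from 11.9, 11.4 and 11.7 CPM to 20, 17.4 and 21.1 CPM. Insulin receptor Insr, its substrate Irs2 and the mTORC2 subunit Rictor were among the risers, at log2 fold changes of 0.38, 0.42 and 0.43. Of 28 p53 targets 18 rose and none fell. Gadd45a and Btg2, an antiproliferative gene (6.22 ± 1.23 to 11 ± 1.78 CPM), had the largest rises beside Sesn2, which is also an ATF4 gene.

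Several families of ubiquitin ligases leaned the same way. Kelch-like proteins, substrate adaptors of cullin 3 ligases, rose in 13 of 22 cases and fell in 3, although only 7 rose without HOCl library 2. Klhl24 led, with 61.6, 67.8 and 72.0 CPM against 115, 108 and 113 CPM. F-box proteins, the adaptors of cullin 1 ligases, rose in 19 of 45 cases and RING finger genes in 20 of 53, for instance Rnf19a (30 ± 2.7 to 49.8 ± 2.74 CPM). Leaving out 1 library gave 13 to 21 and 14 to 24 of them. The falls, 2 F-box and 5 RING finger genes, were 0 to 2 and 2 to 7.

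Of all lists counted, that of DNA replication had the largest share of falls. At the start of S phase the MCM helicase, loaded by Cdc6 and Cdt1, opens the DNA, and E2F factors switch on the genes involved. Of 52 well expressed members, 49 fell and none rose, with a median of -0.46 and 46 to 51 falls when 1 library was left out. Tk1, which salvages thymidine, went from 137, 117 and 119 CPM to 72.0, 70.1 and 67.7 CPM. E2f1 went from 90.0, 84.5 and 92.5 CPM to 56.0, 54.9 and 52.8 CPM, and the helicase subunit Mcm7 from 198, 195 and 197 CPM to 129, 130 and 127 CPM. In all 3 the groups are separate, as in most called genes. Of the 8 E2F genes 4 fell, and none rose.

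The E2F site letters can be seen in front of some of these genes. The stretches below are the 250 bases before the RefSeq start (GRCm38.p6) of Cdc6 and Mcm6, shown because they are the members with the largest falls (log2 fold changes of -0.58 and -0.47) that have a single RefSeq start and such letters. Capitals mark TTTCCCGC or TTTGGCGC, on either strand.
Cdc6 (chr11:98907901-98908150, plus strand): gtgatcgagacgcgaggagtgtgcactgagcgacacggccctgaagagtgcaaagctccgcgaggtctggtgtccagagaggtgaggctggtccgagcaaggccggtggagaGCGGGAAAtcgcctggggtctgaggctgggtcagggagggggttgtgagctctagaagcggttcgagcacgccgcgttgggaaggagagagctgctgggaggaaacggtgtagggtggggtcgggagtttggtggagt
Mcm6 (chr1:128359706-128359955, minus strand): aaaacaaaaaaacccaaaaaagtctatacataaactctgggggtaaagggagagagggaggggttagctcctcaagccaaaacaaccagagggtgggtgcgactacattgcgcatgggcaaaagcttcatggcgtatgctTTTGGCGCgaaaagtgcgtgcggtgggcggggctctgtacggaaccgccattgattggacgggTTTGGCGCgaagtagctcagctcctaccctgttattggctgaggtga

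Of the 43 replication members with a RefSeq window, 8 (18.6%) held 1 of the 2 strings in these 250 bases, against 2.8% of the 10686 tested genes with a window. The pentamer CCAAT, on either strand, was in 67.4% of them against 40.6%, but lists that rose held it often too: 64.7% of the FOXO list, 56.5% of p53 targets and 54.9% of genes with 3 or more linkers. The windows of all well expressed genes that fell held the E2F strings in 4.22% of cases and those that rose in 2.46%. For CCAAT the shares were 45.4% and 41%. A match describes letters and not bound factors, and a window without them says nothing of more distant or looser sites.

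Nucleotide synthesis and DNA repair genes also fell more often than they rose. Of 35 enzymes of purine and pyrimidine synthesis 22 fell and 2 rose (median -0.20), although 13 fell without HOCl library 1 and 14 without HOCl library 2. Dut, which keeps uracil out of DNA, fell from 124 ± 8.64 to 81.9 ± 0.749 CPM, and Dhodh, a mitochondrial enzyme of pyrimidine synthesis, from 28.7 ± 1.64 to 19.7 ± 0.896 CPM. Rrm2b, the p53-driven subunit of ribonucleotide reductase, was 1 of the 2 that rose (log2 fold change 0.42). Of 43 homologous recombination, Fanconi and mismatch repair genes 23 fell and 2 rose, with 15 falls without HOCl library 1. Pms2, a mismatch repair gene, went from 13.9, 14.8 and 13.4 CPM to 8.69, 10.5 and 9.52 CPM.

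Enzymes that build and desaturate fatty acids fell in 15 of 27 cases and rose in 2 (median -0.23; 15 to 17 falls with 1 library left out). Elovl6, an elongase, went from 73.8, 82.2 and 83.3 CPM to 55.5, 58.8 and 63.2 CPM. Scd1, which makes monounsaturated fatty acids, went from 368, 415 and 422 CPM to 300, 302 and 311 CPM. Of 23 genes that limit or promote lipid peroxidation, 12 fell and 3 rose, several of them shared with the previous list. The count does not separate those that limit it from those that promote it, so it gives no direction for this defence. Slc7a11, Gclm and Gclc, NRF2 genes outside the list, rose (log2 fold changes of 1.41, 1.11 and 0.65). Of 46 NRF2 genes 26 rose and 3 fell. Gpx4, the selenoprotein that reduces lipid peroxides in membranes, fell from 178 ± 16.6 to 141 ± 4.2 CPM. Gch1, which starts the synthesis of the radical scavenger tetrahydrobiopterin, rose (log2 fold change 0.46), and the 3 rises were 1 without HOCl library 1 or 3. Among 18 selenoproteins, a family also added after values had been seen, 7 fell, the largest fall being that of Selenon (44.0 ± 2.36 to 25.5 ± 1.20 CPM), and 1 rose. The falls were 4 without HOCl library 3.

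The cytoskeleton and the matrix leaned down. Of 14 tubulin genes 8 fell and none rose (5 fell without HOCl library 2). Tubb5, a beta-tubulin, went from 1172, 1113 and 1139 CPM to 830, 804 and 797 CPM, and Tuba1b from 557, 443 and 435 CPM to 337, 327 and 320 CPM. Of 33 actin genes, regulators and SRF targets 15 fell and 4 rose, with 9, 8 and 7 falls without HOCl library 1, 2 or 3. Those that fell included the profilin gene Pfn1 (936 ± 68.1 to 751 ± 26 CPM), whereas Srf itself and its coactivators Mrtfa and Mrtfb were among the 4 that rose (log2 fold changes of 0.29, 0.23 and 0.42), Mrtfa not without HOCl library 1 or 3. Of 29 collagens and other matrix genes 16 fell and 1, Nid1, rose (31.6 ± 2.22 to 46.3 ± 2.91 CPM). Col8a1 fell from 20.2 ± 2.40 to 11.5 ± 0.803 CPM, and 10 matrix genes fell without HOCl library 2.

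Surface receptors and adhesion genes split. Met, the receptor of hepatocyte growth factor, rose from 221, 275 and 281 CPM to 441, 459 and 462 CPM. Epha3, an ephrin receptor, fell from 177, 208 and 210 CPM to 127, 121 and 128 CPM. Over the 18 receptor tyrosine kinases 4 rose (22.2%) and 6 fell (33.3%), of which 3 fell without HOCl library 1. Among 27 adhesion genes 9 rose (33.3%) and 7 fell (25.9%). Integrin Itgb3 went from 49.7, 51.4 and 53.2 CPM to 83.5, 82.3 and 81.4 CPM, while Tln2, a talin that links integrins to actin, went from 159, 180 and 187 CPM to 111, 109 and 115 CPM. The 9 rises were 5 without HOCl library 2 or 3, and the 7 falls were 12 without untreated library 1.

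Of 11 genes induced by ERK signalling 5 fell: Etv5, cyclin Ccnd1 (211 ± 25.3 to 147 ± 6.08 CPM), the ERK phosphatase Dusp6 (135 ± 7.15 to 102 ± 1.69 CPM), Spry2 and Myc (log2 fold changes of -0.36 and -0.33). The 2 that rose, Ier3 and Phlda1 (0.25 and 0.16), were not called when any library but untreated library 1 was left out. Of 18 BMP and TGF-beta genes 5 fell (27.8%) and 3 rose (16.7%), with a median of -0.06, so the list as a whole lay close to the background. The falls were led by Id3, Smad6 and Id2, and the largest rise was that of Tgif1, a TGF-beta corepressor (15.4 ± 0.620 to 23.9 ± 3.00 CPM). The 3 rises were 1 without HOCl library 1 or 3.

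**Figure D4:**
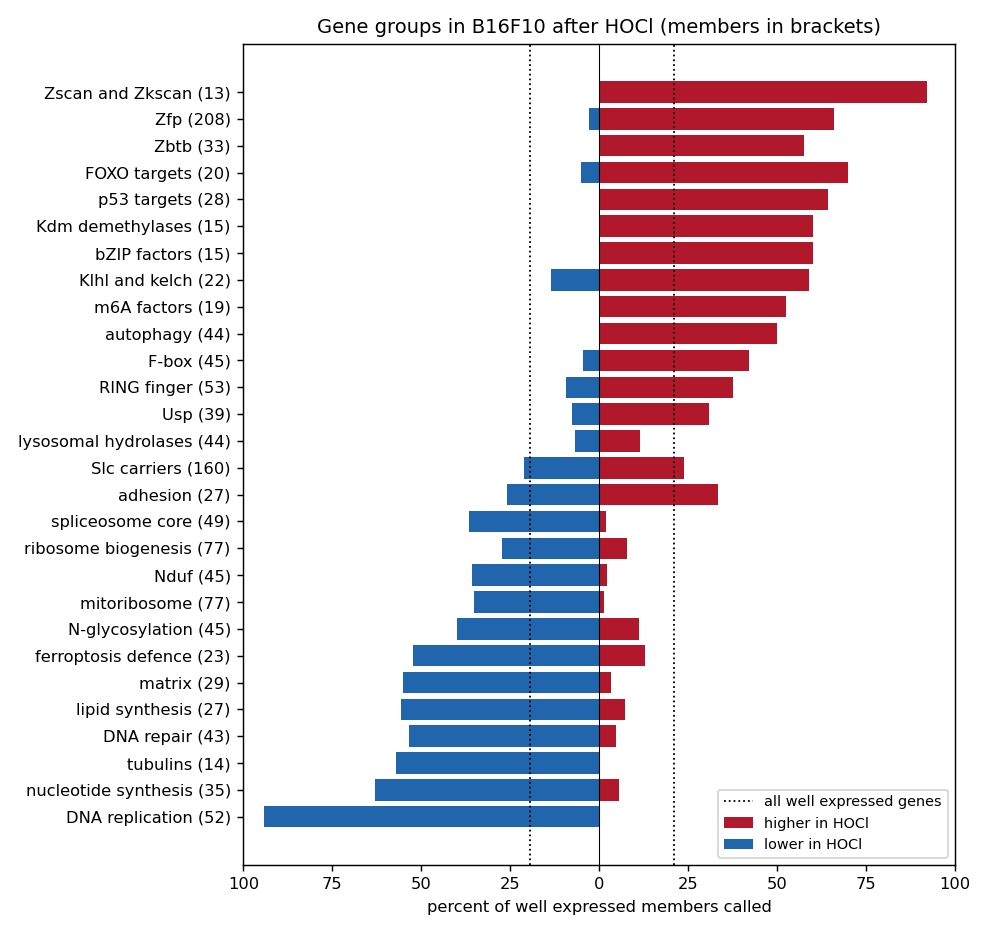
Bars give the percent of well expressed members (number in brackets) that were called higher (red, right) or lower (blue, left) after HOCl in groups of genes. Dotted lines mark all well expressed genes, at 21.1% and 19.5%, and the bars run from 92.3% higher for Zscan and Zkscan genes to 94.2% lower for DNA replication. The group labelled ferroptosis defence is the list of genes that limit or promote lipid peroxidation.

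Splicing genes showed 1 large change. Srsf3, an SR protein that guides exon choice, went from 368, 336 and 327 CPM to 217, 212 and 217 CPM, a log2 fold change of -0.70 ± 0.05 (adjusted p = 5.37e-06, edgeR). Of 22 SR factors and their kinases 6 fell (27.3%) and 3 rose (13.6%), not far from the background. The 3 risers were all kinases (Dyrk1b, Dyrk1a and Clk4, at 0.61, 0.45 and 0.23), Clk4 not without HOCl library 1. Of 49 core spliceosome genes 18 fell and 1 rose, led by Sf3b5 (70.9 ± 7.94 to 51.8 ± 2.24 CPM).

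Transcript length moved with the comparison and with 1 library, and it touches the families of short transcripts. In the shortest of 8 equal classes of well expressed coding genes (383 to 1724 bases) 6.92% rose and 33.4% fell, with a median log2 fold change of -0.15. In the longest (6617 to 123179 bases) 27.6% rose and 12.2% fell, with a median of 0.09. The untreated libraries did not agree on this: the median of the shortest class stood at 0.12, -0.06 and -0.06 in untreated libraries 1, 2 and 3 and at -0.11, -0.12 and -0.19 in the HOCl libraries. In the longest class the values were -0.15, 0.08 and 0.07, and then 0.06, 0.08 and 0.14. Without untreated library 1 the shortest class had a median of -0.07, with 12% higher and 31.6% lower, and the longest a median of 0.01, with 23.8% lower. The rises of the shortest class were 4.36% without HOCl library 1. Its falls were 19.8% without HOCl library 2 and 15.7% without HOCl library 3. In the longest class rises were 15% without HOCl library 3, and falls were 7.95% without untreated library 3, 7.78% without HOCl library 1 and 8.03% without HOCl library 2.

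**Figure D5:**
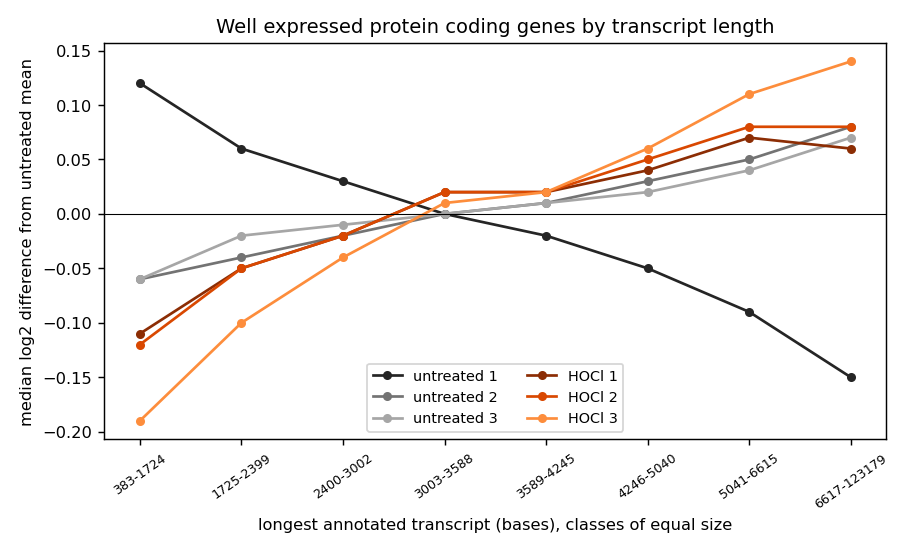
Lines give, for each library, the median log2 difference from the untreated mean over well expressed coding genes in 8 classes of equal size by the length of the longest annotated transcript. Untreated library 1 runs from 0.12 to -0.15, against the other 5, which run from between -0.06 and -0.19 to between 0.06 and 0.14.

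An alternative chosen after seeing the data took each library's length trend out before the test, and some families lost their lean while others kept it. Cytosolic ribosomal protein genes, at a median of -0.13 with 5 of 78 lower, moved to -0.01 with 2 lower. Their 5 falls were 11 and 10 without untreated library 2 or 3, and 1 without any HOCl library. Subunits and assembly factors of complex I went from -0.18 with 16 of 45 lower to -0.06 with 10 lower. The 16 were also 9, 6 and 2 without HOCl library 1, 2 or 3. Mitochondrial ribosomal proteins went from -0.15 to -0.11 with 27 of 77 lower in both, and the 27 were 15, 13 and 10 without HOCl library 1, 2 or 3. The replication list stood at -0.44 with 49 lower, the genes with 3 or more linkers at 0.35 with 98 higher, autophagy at 0.15 with 24 higher and the Kdm genes at 0.20 with 10 higher. Such a correction also removes whatever part of an HOCl effect runs with length.

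The most abundant genes leaned down. Of the 85 coding genes at 1000 CPM or more in either group 5 rose and 31 fell, that is 5.88% and 36.5%, against 22.2% and 14.9% at 10 to 20 CPM. The 6 largest losses in CPM included those of the glycolytic enzyme Eno1 (2960 ± 179 to 2567 ± 101 CPM), the chaperone Hspa8 (2903 ± 25.6 to 2503 ± 99.1 CPM) and the intermediate filament Vim (2237 ± 99.5 to 1807 ± 34.8 CPM). Hspa5 and Calr, chaperones of the endoplasmic reticulum, fell from 1829 to 1477 CPM and from 1774 to 1434 CPM. Gpnmb and Dct, pigment-cell genes among the most abundant, did not pass the test. Gpnmb measured 8774 ± 94.0 and 8338 ± 120 CPM, and the melanin enzyme gene Dct 7970 ± 243 and 7655 ± 182 CPM. The reference gene Gapdh was called lower (4131 ± 102 to 3813 ± 160 CPM, adjusted p = 0.0411, edgeR). That call was lost with library totals in place of TMM scaling and without any 1 of untreated libraries 2 and 3 or of the HOCl libraries.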

How the data were processed

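The authors deposited raw gene counts per library. Per the submitters' processing notes, FastQC 0.11.8, STAR 2.7.1a, featureCounts 1.6.0, DESeq2 1.22.2 and the mm10 build were named, and the treatment of strand, mates and multi-mapping reads is not stated there. Of 54838 gene identifiers, 54809 were matched to GENCODE M21. The 6 B16F10 libraries were grouped by title and fitted alone with edgeR 4.0.16 in R 4.3.3 (filterByExpr, TMM, robust quasi-likelihood F test, Benjamini-Hochberg over all genes tested, threshold 0.05), and the fit was tested on simulated data. CPM use library totals. Alternatives were DESeq2 1.42.0, other scalings and filters, a test against 1.5-fold, a replicate block, leaving out each library, and, added after seeing the data, counts divided by 2 and transcript length offsets. The largest changes and largest CPM changes were named by rank among well expressed called genes whose groups did not overlap. Up to 4 called members per direction of each list were named by size of change, whether or not the groups overlapped. The 10 most abundant genes were named whether called or not. Other names were chosen after their values were seen. Members and lists were chosen with earlier results of these data known.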

Additional observations from a re-analysis of the deposited data

How the results depend on the processing

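Over all genes tested, 2366 rose and 2178 fell. A test against a 1.5-fold change left 28 higher and 45 lower, and among well expressed genes 20 and 35, since it asks for a larger change. Leaving out 1 library gave 1605 to 2819 higher and 1410 to 2634 lower genes over all genes, and among well expressed genes 1374 to 2408 higher and 1188 to 2298 lower. The fewest calls came without HOCl library 3, and the cause was not tested beyond the smaller number of libraries. Library totals without TMM moved the median of all genes by 0.027 (log2) and gave 2714 higher and 1808 lower, so the share of higher among called genes went from 52.1% to 60%. DESeq2, its size factors, other filters, counts divided by 2 and length offsets kept all 4 counts within 1.5 times. Same-numbered libraries deviated together only weakly (r = 0.125, -0.037 and 0.065). With 3 libraries a group, this cannot tell whether the numbers pair them. The replicate block gave 2726 higher and 2567 lower. Of 554 named genes, 433 kept their side of the threshold without HOCl library 3 and 523 with length offsets, and no direction of a called gene was reversed.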

Other observations

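Solute carriers, the largest transporter family, were called in both directions at close to the share of all well expressed genes: of 160, 38 rose and 34 fell. Zinc exporter Slc30a1 went from 17.3, 20.5 and 17.1 CPM in untreated cells to 30.8, 29.7 and 33.3 CPM after HOCl, and the mitochondrial dicarboxylate carrier Slc25a10 from 120, 107 and 111 CPM to 77.2, 74.8 and 71.7 CPM. The groups are apart in both, as in most called genes. The 38 rises were 25, 22 and 22 without HOCl library 1, 2 or 3, and the 34 falls 21 without HOCl library 2 and 22 without HOCl library 3.

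Enzymes of N-linked glycan assembly fell in 18 of 45 cases and rose in 5, with a median log2 fold change of -0.15. Ostc, a subunit of the transferase, went from 125 ± 5.42 to 97.4 ± 2.66 CPM (mean ± SD, n = 3), whereas Alg10b, which adds the last glucose of the precursor, rose from 83.6 ± 8.47 to 115 ± 8.54 CPM. The 18 falls were 11 without untreated library 3, 10 without HOCl library 2 and 11 without HOCl library 3. The 5 rises were 2 to 3 without untreated library 2 or 3 or HOCl library 2 and 1 without HOCl library 1 or 3.

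Of 33 genes of melanosome assembly and transport 6 rose and 8 fell, shares of 18.2% and 24.2% that are near those of all well expressed genes. Mlph, the adaptor that ties melanosomes to myosin, went from 650, 739 and 710 CPM to 459, 491 and 498 CPM. Hps6, a subunit of a complex that builds melanosomes, rose from 15.5 ± 0.861 to 22.1 ± 1.46 CPM. The 8 falls were 4, 3 and 2 without HOCl library 1, 2 or 3. Among 11 immune surface molecules 1 rose and 3 fell, and Lgals9, which encodes galectin-9, had the largest change (178 ± 9.71 to 113 ± 4.85 CPM). The 3 falls were 5 without untreated library 1, and the 1 rise was 2 without untreated library 2.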
